A study of Mus musculus with 5 samples.

Results

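Whole lung of mice without PDE4B, labelled 4B(-/-), was compared with whole lung of the wild-type line kept beside it, labelled 4B(+/+). The comparison rests on 2 of the 5 arrays of the series, 1 on each side, chosen by sample title alone, and it was read over all 45101 probe sets as the log2 intensity of 4B(-/-) minus that of 4B(+/+). The other 3 arrays, C57, 4D(+/+) and 4D(-/-), served as context: C57 is the parental C57BL/6J strain, and the last 2 are the wild-type and knockout lines for PDE4D. All animals were naive females, and their age is not known from the labels. The 4 lines came from a mixed C57BL/6 and 129/Ola background with 11 or more generations of backcrossing to C57. For every strain 5 lungs were frozen and powdered, and after an RNA quality check 3 of them were chosen and mixed for 1 array, so each array is a pool and the spread between animals was not measured. With 1 array a side no difference below has a replicate check, no test was possible, and each value is that of the array named.

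PDE4B is a phosphodiesterase, an enzyme that breaks down the second messenger cyclic AMP inside cells. Cyclic AMP activates protein kinase A, which phosphorylates the transcription factor CREB. CREB binds short DNA elements in the promoters of many immediate early genes, the genes that a stimulus switches on within minutes. In lung and blood cells PDE4B is known for its part in inflammatory signalling, and inhibitors of PDE4 enzymes are used in chronic obstructive lung disease.

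Where a gene had several probe sets the one brightest on average was used, and genes entered the counts if any of the 5 arrays read at least 64, called the floor here. This left 11500 genes and 20802 probe sets. Median intensities by array ran from 45.4 to 46.6. The lung markers Sftpc, the surfactant protein of alveolar type 2 cells, and Ager, a receptor of alveolar type 1 cells, were bright on both arrays: Sftpc read 24791 in 4B(-/-) and 24896 in 4B(+/+), and Ager read 19786 and 19475. The ratio of 3' to 5' actin probes, a sign of RNA integrity, was 1.79 in 4B(-/-) and 1.62 in 4B(+/+), within 1.62 to 1.88 over the 5 arrays. The same ratio for Gapdh was 1.57 and 1.37, within 1.31 to 1.77. Above the floor, 32 probe sets of spike-in controls had a median log2 difference of 0.15, from -0.02 to 0.39. List medians of that size or less are to be read beside it. The control for the B1 repeat was brightest in 4B(-/-), at 2238, next to 1541 in 4B(+/+) and a range of 1363 to 2044 in the rest.

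The targeted gene was read first. The brightest of 3 Pde4b probe sets above the floor (1422473_at) gave 457 in 4B(-/-), 558 in 4B(+/+), 438 in C57, 468 in 4D(+/+) and 466 in 4D(-/-). It was 1.22-fold lower in the knockout than in its wild type and within the range of the other 4 arrays. The next (1422474_at) read 397 in 4B(-/-) against 461 to 490.1 in the other 4 arrays, and 1442700_at 164 against 199 to 258. In these 2 the knockout was the lowest array, by 1.23-fold and 1.34-fold below 4B(+/+). The other 3 Pde4b probe sets stayed under the floor in all 5 arrays. The labels do not say which part of the gene was deleted, and a probe outside the deleted part checks nothing.

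Over all 11500 genes the differences were small. The median log2 difference was 0.01, the middle 95% of genes lay between -0.38 and 0.33, and 8.07% of genes had exactly the same value on both arrays. Of all genes 52.1% were above 0 and 39.8% below, the shares against which counts above or below 0 in the lists are to be read. By at least 2-fold 12 genes were higher in 4B(-/-), 0.104% of those counted, and 35 were lower, 0.304%. By at least 1.5-fold, the size used for members of gene lists, 44 genes were higher (0.383%) and 107 lower (0.93%). Read by probe set, 19 were 2-fold higher (0.0913%) and 46 lower (0.221%). Of the 12 higher genes 4 had 4B(+/+) or 4B(-/-) under the floor, and so did 12 of the 35 lower genes; folds of these rest on a value near background. A second probe set above the floor existed for 5 of these 47 genes (Dntt, Ccr9, Myl3, Cd8a and Col11a1), and all 5 differed in the same direction, 4 of them by at least 1.5-fold.

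**Figure D1:**
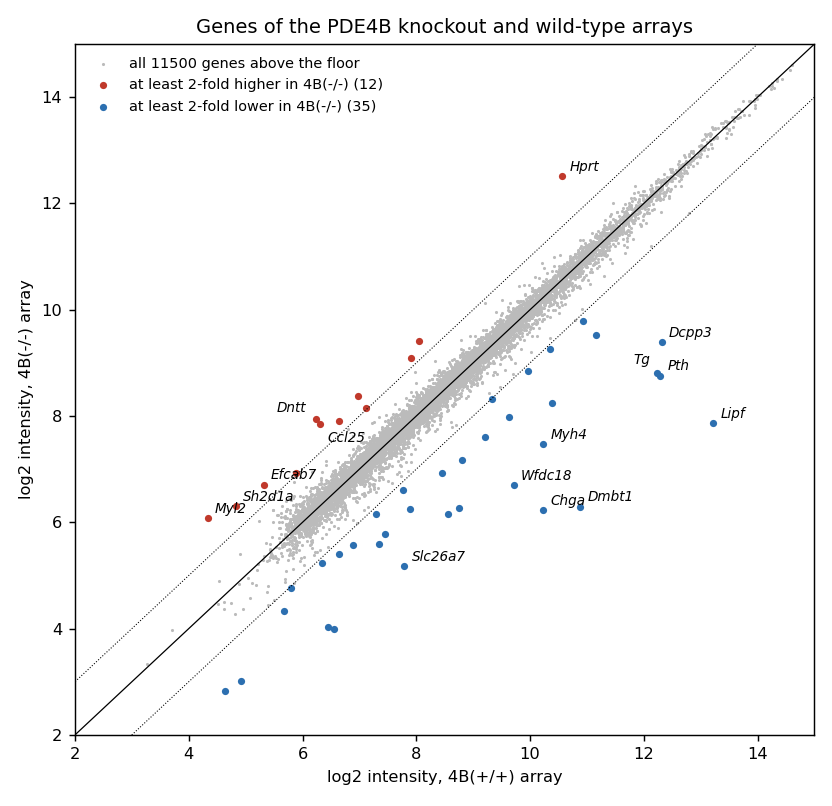
Each point is a gene, with the log2 intensity of the 4B(+/+) array on the x axis and that of the 4B(-/-) array on the y axis, the line of equality solid and the 2-fold lines dotted. Of 11500 genes, 12 lie above the upper dotted line and 35 below the lower, with Lipf farthest from equality at -5.35 and Hprt highest at 1.94.

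Few genes of the phosphodiesterases and the rest of the cyclic AMP pathway passed 1.5-fold. Over all genes 0.383% were higher by that size and 0.93% lower, so counts near 0 are usual for lists this short. Of 24 phosphodiesterases measured 12 were above the floor, and 0 of them differed by 1.5-fold; their differences ran from -0.29 (Pde4b) to 0.32 (Pde9a), which hydrolyses cyclic GMP. Pde5a, another cyclic GMP enzyme, read 2091 against 2370.4, a difference of -0.18. Pde7b and Pde8a, which like PDE4 enzymes break down cyclic AMP, were at 0.14 and 0.14. The 10 genes of Gs and of adenylyl cyclases, the enzymes that make cyclic AMP, also all lay within 1.5-fold, between -0.30 (Adcy7) and 0.28 (Adcy2). So did 7 Gs-coupled receptors and 12 genes of the CREB family and its coactivators.

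Of 21 genes for protein kinase A, the cyclic AMP sensor EPAC and anchoring proteins, 1 passed 1.5-fold. Prkar2b, a regulatory subunit that holds protein kinase A inactive until cyclic AMP binds, read 236 in 4B(-/-), 389 in 4B(+/+), 285 in C57, 421 in 4D(+/+) and 273 in 4D(-/-). It was lowest in 4B(-/-) and 1.65-fold below 4B(+/+). The catalytic subunit Prkaca was at -0.32, and the inhibitors Pkib and Pkia at -0.46 and -0.28. The median of the list was -0.05, against 0.01 over all genes, and 4B(-/-) was the lowest of the 5 arrays at 10 of its 21 genes, where over all 11500 genes it was lowest at 18.9%.

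The immediate early genes lay lower in the knockout as a group. Of 24 above the floor 22 were below 0, against 39.8% of all genes, 5 were lower by 1.5-fold (0.93% of all genes) and 0 higher, and the list median was -0.29. At 18 of the 24, 4B(-/-) was the lowest of the 5 arrays, and at 0 of them the highest. The median stood at -0.65 against C57 and -0.25 against 4D(+/+), so the direction did not hang on the choice of wild-type array. The 4B(+/+) array itself lay below C57 on this list, at a median of -0.32, so a value below C57 is not particular to the knockout. Fosb and Fosl1 stayed under the floor.

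Egr3, a zinc-finger transcription factor induced by growth factors and antigen receptors, read 20.2 in 4B(-/-), 50.7 in 4B(+/+), 227 in C57, 78.4 in 4D(+/+) and 99.0 in 4D(-/-). It was 2.51-fold below 4B(+/+), with both arrays under the floor. Egr2, of the same family, read 46.2 against 86.8, 1.88-fold lower, and its second probe set was 1.58-fold lower. The orphan nuclear receptor Nr4a1 read 226 in 4B(-/-), 414 in 4B(+/+), 1548 in C57, 726 in 4D(+/+) and 581 in 4D(-/-), again lowest in the knockout, by 1.83-fold. Atf3, a stress-induced factor of the CREB family, was 1.61-fold lower at 133 against 213, and Egr1 1.51-fold at 541 against 815. C57 read highest for Egr3, Egr2, Nr4a1, Atf3 and Egr1, with 3115 for Egr1. The Krüppel-like factor Klf4 was at -0.52, and Dusp1, a phosphatase of stress kinases, at -0.47. Fos and its partner Jun, chosen after their values were seen, were at -0.43 and -0.27. Ier3 and Maff were the 2 members above 0, at 0.16 and 0.10.

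The bases before the start of these genes were searched for the CREB-binding element, TGACGTCA, and for its 5-letter core, TGACG, on both strands. The promoter table, from RefSeq on mouse build GRCm38.p6, gave windows for 19 of the 24 genes, and 13 of the 19 (68.4%) held the core within 250 bases of a start, where 19.8% of all 27025 genes in the table did. The core is not particular to these genes: 11 of 21 heat shock chaperone genes with a window (52.4%) held it as well. The whole element, which contains the core, was found for 3 genes (15.8%, Dusp1, Btg2 and Maff) against 1.77% of all genes, and the CArG box, bound by serum response factor, for 2 (10.5%) against 1.62%. The 250 bases before the start are printed for Egr2, Nr4a1 and Atf3, the 3 genes past 1.5-fold that the table holds, read on the strand of the gene, with each copy of the core (TGACG, or CGTCA where it lies on the other strand) in capitals. Nr4a1 is at chr15:101266596-101266845 on the plus strand, with cores beginning 233, 213, 69 and 40 bases before the start. Atf3 is at chr1:191183334-191183583 on the minus strand, with 1 core 7 bases before the start, and Egr2 at chr10:67537619-67537868 on the plus strand, with cores at 111 and 55 bases and 1 CArG box; of several listed starts of Egr2 the one with most cores is shown.
Nr4a1: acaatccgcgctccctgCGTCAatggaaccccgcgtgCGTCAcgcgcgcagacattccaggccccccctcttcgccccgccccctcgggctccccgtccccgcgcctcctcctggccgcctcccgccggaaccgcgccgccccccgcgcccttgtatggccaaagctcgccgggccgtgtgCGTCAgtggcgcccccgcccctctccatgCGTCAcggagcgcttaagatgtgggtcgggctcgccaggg
Atf3: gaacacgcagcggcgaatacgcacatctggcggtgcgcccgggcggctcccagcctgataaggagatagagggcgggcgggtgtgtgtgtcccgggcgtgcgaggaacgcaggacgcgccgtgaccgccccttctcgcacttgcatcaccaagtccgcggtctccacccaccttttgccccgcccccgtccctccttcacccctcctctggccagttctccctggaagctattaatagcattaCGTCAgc
Egr2: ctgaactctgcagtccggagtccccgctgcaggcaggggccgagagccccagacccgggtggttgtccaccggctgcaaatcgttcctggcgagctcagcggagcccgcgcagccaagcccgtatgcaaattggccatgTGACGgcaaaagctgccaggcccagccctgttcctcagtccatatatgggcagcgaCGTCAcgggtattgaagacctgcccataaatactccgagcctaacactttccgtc
A match describes letters and is not a measured binding site. Maff held the whole element and was above 0 in the comparison, while Klf6, at -0.16 and picked afterwards, held no copy of any of the 3 in its window.

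Heat shock chaperones had a smaller median shift, with 1 pair of genes past 1.5-fold. Of 25 above the floor 2 were lower by 1.5-fold and 0 higher, with a median of -0.12. Hspa1b, an inducible HSP70 chaperone, read 2339 in 4B(-/-), 4493 in 4B(+/+), 2036 in C57, 3853 in 4D(+/+) and 3685 in 4D(-/-), 1.92-fold below 4B(+/+). Its other 2 probe sets were 1.64-fold and 1.52-fold lower, and Hspa1a read 705 against 1313, 1.86-fold lower. C57 lay below 4B(-/-) for both, so against C57 the knockout was higher, by 0.20 for Hspa1b and 0.29 for Hspa1a on the log2 scale. The co-chaperone Dnajb1 was at -0.35, the mitochondrial chaperonin Hspe1 at 0.28, and Hsp90aa1 and Dnajb4 at -0.23 and -0.21.

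Hspa1a and Hspa1b are near-identical copies, and their probe sets could share signal, so how the difference divides between them is uncertain. Their windows show how alike they are. On GRCm38.p6 Hspa1a is at chr17:34972157-34972406 and Hspa1b at chr17:34959239-34959488, both on the minus strand, and 247 of the 250 bases (98.8%) are the same. Each holds 1 copy of GAANNTTC, the inner part of a heat shock element, with its first base 104 bases before the start, shown in capitals. This motif reads the same on both strands and was found for 7 of the 21 chaperone genes with a window (33.3%), against 7.73% of all genes.
Hspa1a: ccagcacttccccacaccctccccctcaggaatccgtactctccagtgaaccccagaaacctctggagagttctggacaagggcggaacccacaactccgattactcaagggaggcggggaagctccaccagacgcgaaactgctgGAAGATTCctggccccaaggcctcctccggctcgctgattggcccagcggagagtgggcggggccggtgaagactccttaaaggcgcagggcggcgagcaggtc
Hspa1b: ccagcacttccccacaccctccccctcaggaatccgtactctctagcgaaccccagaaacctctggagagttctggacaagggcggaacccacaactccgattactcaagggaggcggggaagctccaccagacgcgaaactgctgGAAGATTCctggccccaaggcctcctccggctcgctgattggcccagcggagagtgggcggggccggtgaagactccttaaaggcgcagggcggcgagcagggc

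Of the genes induced by glucocorticoids, 2 of 17 were 1.5-fold higher in the knockout and 0 lower: the transcription factor Zbtb16, at 1118 against 592, and the FK506-binding protein Fkbp5, at 521 against 321. The list median was -0.10, with Errfi1 at -0.42 and Pdk4 at -0.41.

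T-cell and thymocyte genes had the highest median of the 49 lists. Of 27 measured 21 were above the floor, and 10 of these were higher by 1.5-fold and 0 lower, with a median of 0.48. Over all genes 0.383% were higher by that size. At 15 of the 21 the knockout array was the highest of the 5, against 28.4% of all genes. Sh2d1a and Cd8a reached the floor in 4B(-/-) alone, so their place among the 21, the 10 and the 15 was set by the floor, and the median includes them. The list summed to 4551 in 4B(-/-) and 2985 in 4B(+/+), and C57, 4D(+/+) and 4D(-/-) gave 2590 to 2819. In bulk lung, a change in the number of cells of a type and in RNA per cell cannot be told apart.

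Dntt, the terminal transferase that adds bases while antigen receptor genes are joined, read 247 in 4B(-/-), 75.7 in 4B(+/+), 39.4 in C57, 61.0 in 4D(+/+) and 47.5 in 4D(-/-). It stood 3.26-fold above 4B(+/+), and its second probe set 3.89-fold. Rag1, the recombinase that cuts those genes, read 331 in 4B(-/-), 126 in 4B(+/+), 6.57 in C57, 98.1 in 4D(+/+) and 10.6 in 4D(-/-), 2.62-fold above 4B(+/+). C57 and 4D(-/-) were far under the floor for Rag1, so the 2 wild-type lines already stood above the parental strain. The T-cell co-receptors Cd8a and Cd8b1 read 121 against 59.2 and 124 against 71.8, 2.04-fold and 1.72-fold higher.

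Rag2 and Ptcra, which also act in developing T cells, stayed under the floor. Sh2d1a, an adaptor of T and natural killer cells, read 78.7 against 28.4 and at most 28.4 in the other 4 arrays, all under the floor. Ccr9, the receptor that draws thymocytes and gut T cells to the chemokine CCL25, read 240.4 against 99.6, 2.41-fold higher, and the receptor segment Trbv1 546 against 241, 2.26-fold. Cd3d and Cd3g, subunits of the T-cell receptor complex, were 1.79-fold and 1.54-fold higher, and Thy1 1.51-fold; these 3 and Cd8b1 fall outside the naming rule and were picked after their values were seen. Other T-cell genes were level: Cd3e was at 0.06, the co-receptor Cd4 at 0.07, Zap70 at -0.02, Lef1 at -0.03 and Cd2 at -0.18, likewise picked afterwards.

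Genes of thymus epithelium, the stroma in which T cells mature, were read beside them. Ccl25, the chemokine that this epithelium and the small intestine make, read 231 in 4B(-/-), 79.2 in 4B(+/+), 43.0 in C57, 108 in 4D(+/+) and 37.1 in 4D(-/-), 2.92-fold above 4B(+/+). Its other probe set, under the floor in all 5 arrays, was level at 37.7 in 4B(-/-) against 37.0 in 4B(+/+). Prss16, a thymus-specific serine protease, read 143 against 84.7 and 33.8 to 68.0 in the other 3 arrays, 1.68-fold higher. These were 2 of the 5 epithelial genes above the floor, and the median was 0.19. The defining genes Foxn1, Psmb11 and Aire stayed under the floor in all 5 arrays, as did Krt14. Tbata, a gene known from thymus and testis, was not counted because its brightest probe set stayed under the floor, at 55.3 against 52.7. Its other 3 probe sets, picked after their values were seen, were higher in 4B(-/-): 1425957_x_at read 91.2 against 23.3 (3.92-fold), 1427130_x_at 119 in the knockout (2.48-fold) and 1450281_a_at 63.5 against 21.8 (2.91-fold). Of these, 1425957_x_at and 1427130_x_at reached the floor only in 4B(-/-), the array where they were high, and 1450281_a_at in no array. No other listed gene left out had a probe set above the floor. The summed intensity of the 5 was 916 in 4B(-/-), 708 in 4B(+/+) and 609 to 714 in the others. The part of thymus tissue in the T-cell difference was not tested.

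**Figure D2:**
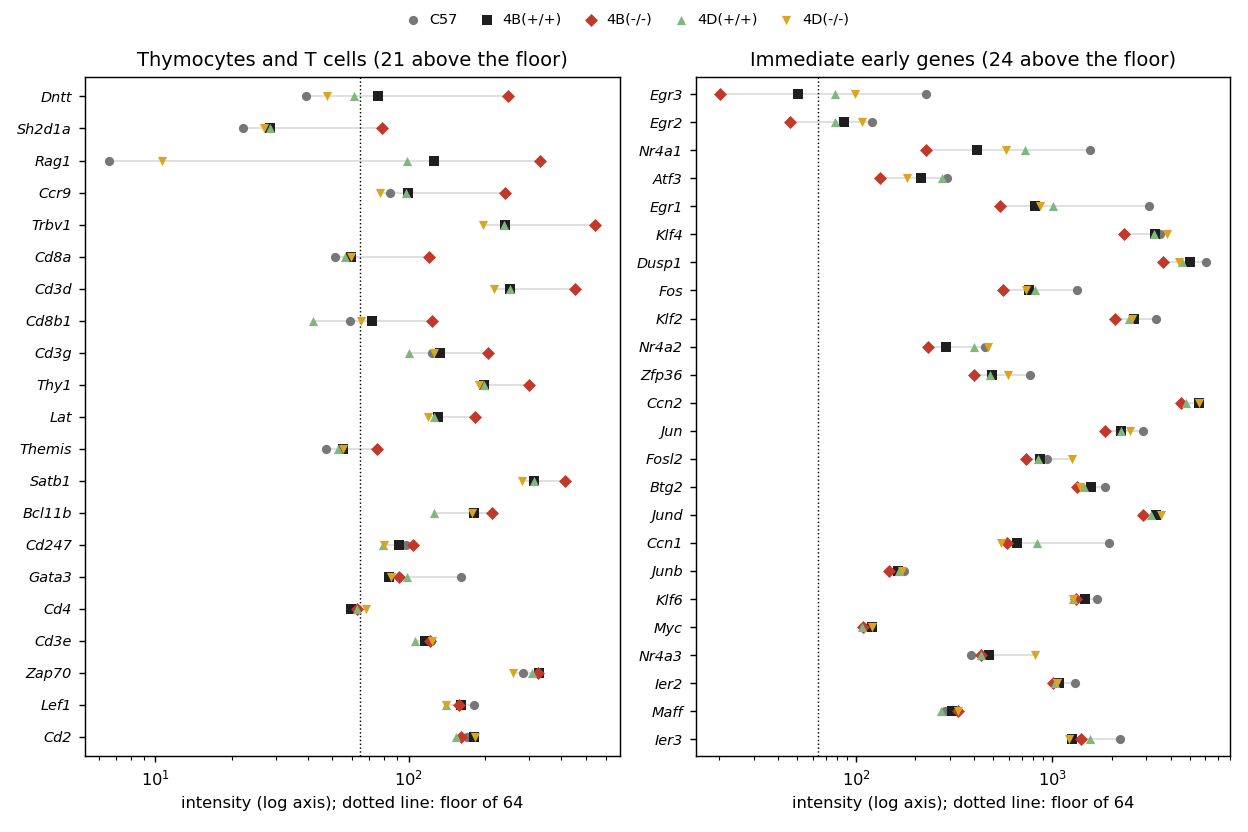
Intensity on a log axis in each of the 5 arrays for the T-cell genes on the left and the immediate early genes on the right, ordered by difference, with the floor of 64 dotted. The 4B(-/-) diamond is the rightmost symbol for 15 of 21 T-cell genes and the leftmost for 18 of 24 immediate early genes.

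Of 11 B-cell genes above the floor 10 were below 0 and 1 passed 1.5-fold, with a median of -0.16, and the knockout array was the lowest of the 5 at 10 of them. Over all genes 39.8% were below 0, 0.93% were lower by 1.5-fold, and 4B(-/-) was the lowest at 18.9%. On this list 4B(+/+) itself lay below C57, at a median of -0.67, so a value below C57 is not particular to the knockout. Bank1, a scaffold of B-cell receptor signalling, read 75.5 in 4B(-/-), 135 in 4B(+/+), 158 in C57, 119 in 4D(+/+) and 165 in 4D(-/-), 1.79-fold lower. The IgM receptor Fcmr was at -0.49 and H2-Ob, which tunes peptide loading in B cells, at -0.48. All 9 genes of MHC class II presentation were below 0 and within 1.5-fold, with a median of -0.18; H2-Ob, which is on both lists, had the lowest value and the master regulator Ciita the next, at -0.39. All 8 NK and cytotoxic genes lay within 1.5-fold around a median of -0.26, with the pore-forming protein Prf1 at -0.42.

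Hprt had the largest positive difference among genes read by their brightest probe set. This X-linked enzyme salvages purine bases, and it read 5841 in 4B(-/-), 1520 in 4B(+/+), 1409.6 in C57, 1632 in 4D(+/+) and 1844 in 4D(-/-). The knockout stood 3.84-fold above its wild type and apart from all other arrays, which lay close together. Hprt had no second probe set above the floor. No other of the 12 purine salvage genes passed 1.5-fold: adenosine deaminase (Ada) was at 0.47, adenosine kinase (Adk) at -0.28 and Aprt at 0.22.

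Cyp26b1, which breaks down retinoic acid, was 2.58-fold higher in the knockout, at 683 against 265. The other 3 arrays read 519 to 739, so the wild-type line was the low one, and against 4D(+/+) the difference turned to -0.11. Lrat, which stores retinol as esters, was at 0.52, and the other 10 genes of retinoic acid metabolism lay between -0.02 and 0.22. Among cytokines and chemokines 1 of 26 was lower besides Ccl25 being higher. Cxcl5, a neutrophil attractant of airway epithelium, read 194 in 4B(-/-), 593 in 4B(+/+), 18.7 in C57, 130.3 in 4D(+/+) and 53.8 in 4D(-/-). The 4B(+/+) array stood alone here, 3.05-fold above the knockout, which was the next highest, so the sign turned against either other wild-type array. The inflammatory genes Il6, Il1a, Tnf, Ccl2, Ccl3, Cxcl2 and Cxcl10 were under the floor in all 5 arrays.

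Of 27 cell division genes above the floor 23 were above 0, 3 were higher by 1.5-fold and 0 lower, with a median of 0.20. Ube2c, which marks mitotic proteins for destruction, read 108 against 57.6, 1.87-fold higher. The survivin gene Birc5 was 1.61-fold and cyclin B2 (Ccnb2) 1.60-fold higher, both with 4B(+/+) under the floor. The 4D(-/-) array read nearly as high, at 107, 84.2 and 76.9, and 4B(-/-) was the highest of the 5 arrays at 6 of the 27 genes, a share below the 28.4% over all genes. Cdca3, Cdk1 and Ccna2 were at 0.56, 0.52 and 0.42.

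Of 39 skeletal muscle genes 20 were lower by 1.5-fold and 5 higher, with a median of -0.61. The median turned to 0.19 against C57 and was -2.32 against 4D(+/+). Myh4, the myosin of the fastest fibres, read 177 in 4B(-/-), 1204 in 4B(+/+), 612 in C57, 3920.3 in 4D(+/+) and 1562 in 4D(-/-). It was lowest in the knockout, 6.81-fold below 4B(+/+), and highest in 4D(+/+).

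The fast-fibre proteins Actn3, Pvalb and Atp2a1 were 3.13-fold, 3.10-fold and 2.89-fold lower. Casq1, which binds calcium in the reticulum, was 2.37-fold lower with the knockout at 42.4, under the floor. The sarcomere genes Myoz1, Tnnc2, Mybpc2 and Myl1 were lower by 2.13-fold to 2.23-fold, and Tnnt3 by 2.01-fold; Tnnt3 read 316 in C57, close to the 321 of 4B(-/-). Myl1 and Tnnt3, and Rpl3l below, were named after their values were seen. Among the 5 higher genes, the ventricular light chain Myl2 read 67.7 in 4B(-/-) and 20.2 in 4B(+/+), 3.35-fold higher from a value under the floor. Myl3 read 286 against 139, 2.06-fold higher, with 4D(+/+) at 290. The slow or cardiac types Myh7, Myoz2 and Tnnt1 were at 0.64, 0.63 and 0.45. The fast myosin Myh2 was at 0.73 and the slow-type binding protein Mybpc1 at -0.61, so direction did not follow fibre type throughout. Myh7, Myoz2, Tnnt1, Myh2 and Mybpc1 were picked after their values were seen. Rpl3l, a ribosomal protein of striated muscle on no list, was 2.06-fold lower with both arrays under the floor.

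Of 22 genes of heart and pulmonary vein muscle above the floor 5 were higher by 1.5-fold and 0 lower, with a median of 0.35, and the 4B(-/-) array was the highest of the 5 at 13. Myl2 reached the floor in 4B(-/-) alone, so its place among the 5 and the 13, and on the skeletal list, was set by the floor. Without the 4 genes shared with the skeletal list the count was 3 of 18 and the median 0.33. Myl2 and Myl3 are among the shared genes, and the 3 unshared were the natriuretic peptide Nppb (1.70-fold), the muscle LIM protein Csrp3 (1.60-fold) and sarcolipin (Sln, 1.59-fold), a regulator of the calcium pump in atria. Nppa, the atrial peptide, was at 0.53 and troponin C1 (Tnnc1) at 0.54. Skeletal genes summed to 20521 in 4B(-/-) and 26274 in 4B(+/+), with a range of 16688 to 81030 elsewhere. Cardiac genes summed to 29703 and 23627, with a range of 19436 to 27256 elsewhere.

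The steepest differences were in genes of endocrine and secretory glands. Of 12 thyroid, parathyroid and neuroendocrine genes above the floor 8 were lower by 1.5-fold and 0 higher, with a median of -1.02. The floor moved this median, to -0.18 over all measured members without a floor and -2.56 at a floor of log2 7. Tg, the thyroglobulin from which thyroid hormone is made, read 448 in 4B(-/-), 4802 in 4B(+/+), 3065 in C57, 7717 in 4D(+/+) and 1687 in 4D(-/-), 10.7-fold lower. Parathyroid hormone (Pth) read 432, 4999, 1799, 7455 and 2155 in the same order of arrays and was 11.6-fold lower. Chromogranin A (Chga), a protein of secretory granules, read 74.8 in the knockout against 319 to 1372 in the other 4 arrays and was 16.1-fold below 4B(+/+). For these 3 genes the knockout array was the lowest of the 5 and 4D(+/+) the highest. The iodide and chloride transporter family member Slc26a7 was 6.15-fold, the granule protein Scg2 5.89-fold and the deiodinase Dio1 2.16-fold lower, each with the knockout under the floor. The summed intensity of the 12 genes was 3903 in 4B(-/-), 14825 in 4B(+/+), 7973 in C57, 20910 in 4D(+/+) and 7202 in 4D(-/-). Syp, Uchl1, Resp18 and Pcsk1, general neuroendocrine genes, were under the floor in all 5 arrays.

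Of 18 gland and mucosal secretory genes 8 were lower by 1.5-fold and 0 higher, with a median of -0.36 (-0.15 without a floor and -0.62 at a floor of log2 7). Lipf, a lipase known from stomach and tongue glands, read 234 in 4B(-/-), 9517 in 4B(+/+), 5390 in C57, 13730 in 4D(+/+) and 5056 in 4D(-/-). That is 40.7-fold below 4B(+/+) and 21.6-fold below the nearest other array, the largest difference in the comparison. Dmbt1, a scavenger protein of saliva and mucus, read 78.4 against 1172 to 2967 in the other 4 arrays and was 24.1-fold below 4B(+/+). The secreted proteins Wfdc18 and Dcpp3 were 8.08-fold and 7.56-fold lower, the trefoil peptide Tff2 4.38-fold and the proline-rich salivary gene Prpmp5 3.74-fold, the last with both arrays under the floor (8.10 against 30.3). Lactoferrin (Ltf), made by glands and neutrophils, was 1.98-fold lower, and Amy1, an amylase named after its value was seen, 1.54-fold; the neutrophil genes S100a8 and S100a9 were at 0.10 and 0.11. Airway secretory genes did not share this: of 19 club-cell genes only Tff2, which is also on the gland list, passed 1.5-fold, and Scgb1a1 read 23282 against 24461. The summed intensity of the gland genes was 30739 in 4B(-/-), 53353 in 4B(+/+) and 40980 to 71627 in the other 3.

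Further lower genes lay on no list. The glycoprotein Gp2, 2310057J18Rik and Crisp3 were 5.59-fold, 5.32-fold and 3.51-fold lower, and each was lowest in 4B(-/-); for Crisp3 both arrays were under the floor (7.12 in the knockout). Serpinb11, a serpin, and A2ml1, a protease inhibitor of the macroglobulin family, were 3.18-fold and 3.11-fold lower. Glycam1, a mucin-like ligand of L-selectin made by high endothelial venules and mammary gland, read 16.4 in 4B(-/-), 87.2 in 4B(+/+), 588 in C57, 85.2 in 4D(+/+) and 1116 in 4D(-/-). It was 5.33-fold below 4B(+/+), and the other 4 arrays themselves ranged from 85.2 to 1116.

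Of 21 cartilage and tendon genes 8 were lower by 1.5-fold and 0 higher (median -0.50). Tnmd, tenomodulin of tendon, read 48.3 against 163 and was 3.37-fold lower; the type XI collagen Col11a1 read 47.4, 118, 32.4, 54.3 and 84.9 in 4B(-/-), 4B(+/+), C57, 4D(+/+) and 4D(-/-), so 4B(+/+) was the high array. Thbs4, Comp, Col2a1 and Col9a1 were lower by 1.80-fold to 1.95-fold. Against C57 the cartilage median was 0.80 in place of -0.50.

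Of 20 fat genes 3 were lower and 0 higher (median -0.17). Ucp1, the uncoupling protein of brown fat, read 251 in 4B(-/-), 792 in 4B(+/+), 176 in C57, 986 in 4D(+/+) and 92.2 in 4D(-/-), 3.15-fold below its wild type and 0.51 above C57 on the log2 scale. The lipid droplet protein Cidea was 2.15-fold and Pck1, an enzyme of glyceride and glucose synthesis, 1.66-fold lower. In lipid synthesis Dgat2, which forms triglyceride, was the 1 of 24 genes past 1.5-fold, 1.61-fold lower. The fat list summed to 33357 in 4B(-/-), 38638 in 4B(+/+) and 24010 to 44741 in the others. The part of tissue beside the lung in the gland, muscle, cartilage and fat differences was not tested.

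**Figure D3:**
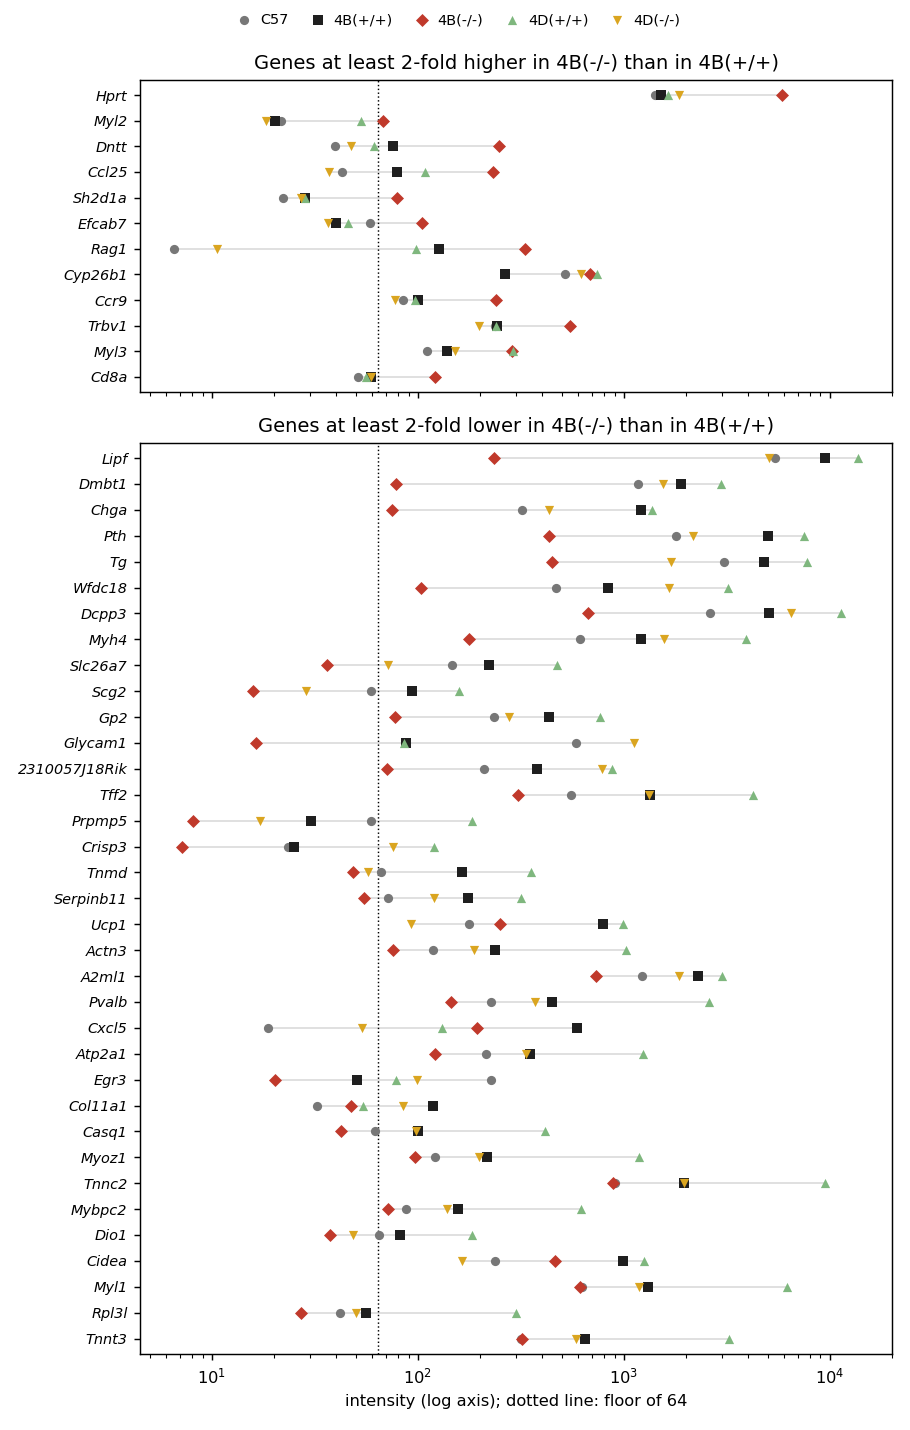
Intensity on a log axis in each of the 5 arrays for the 12 genes at least 2-fold higher and the 35 at least 2-fold lower in 4B(-/-), in order of difference, with the floor of 64 dotted. The red 4B(-/-) symbol lies alone at one end for genes such as Hprt (5841 against at most 1844) and Lipf (234 against at least 5056), while for Cyp26b1 and Cxcl5 the black 4B(+/+) symbol is the outer one.

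Markers of the cells of the lung itself had small median differences. Read by their brightest probe sets, all members lay within 1.5-fold in 27 of the 49 lists, which hold 364 genes and include pathways. Their list medians ran from -0.26 to 0.13. Over all genes 0.383% were higher by that size and 0.93% lower, so such members are rare in general. Some of the 27 had few genes above the floor, such as mast cells with 3. The 15 alveolar type 1 and 16 alveolar type 2 genes had medians of -0.01 and 0.00, fibroblasts 0.03, smooth muscle 0.06, endothelium 0.09 and ciliated cells 0.13. Within endothelium, von Willebrand factor (Vwf) was at 0.44 and Calcrl at -0.32. Alveolar macrophage genes had a median of -0.20, with the lectin Siglecf at -0.58 and Plet1 at -0.41, and among monocyte, macrophage and dendritic genes Nr4a1, already given, was the only one past 1.5-fold.

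The lists of elastic fibre genes, collagens, matrix proteases and their inhibitors had all members within 1.5-fold; collagens of cartilage are on the cartilage list above. Of 16 elastic fibre genes 14 were above 0 with a median of 0.12; elastin (Eln) read 616 against 439, a difference of 0.49, and Mfap4, a microfibril protein, 2029 against 1366. The 20 collagens had a median of 0.07, from -0.11 to 0.19. The 16 elastin-degrading and matrix proteases and 12 inhibitors had medians of 0.00 and 0.01, with cathepsin S (Ctss) at -0.37 and Serpina3n at 0.44. Catalase (Cat) was at -0.57 among 32 antioxidant genes, and the 21 interferon-stimulated genes had a median of -0.05.

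**Figure D4:**
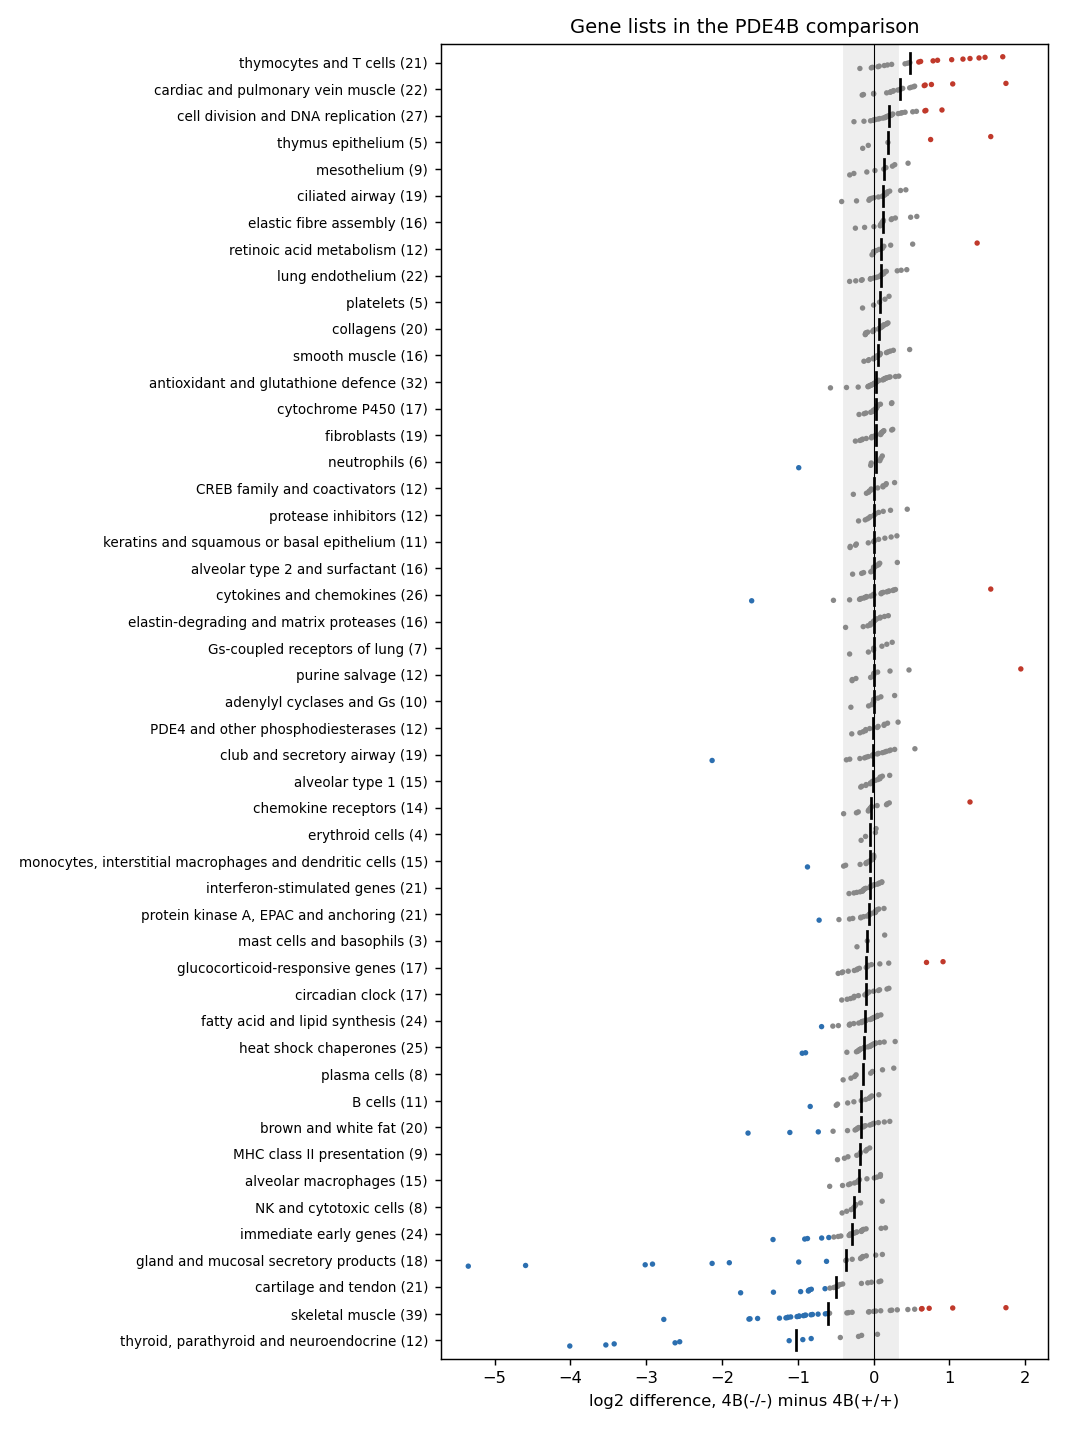
Each point is a gene above the floor placed by its log2 difference, 4B(-/-) minus 4B(+/+), on the x axis; each line is 1 of the 49 gene lists with their gene numbers, ordered by median (black bar). Red and blue points are at least 1.5-fold higher or lower, and the grey band is the middle 95% of all genes, -0.38 to 0.33; list medians run from -1.02 (thyroid, parathyroid and neuroendocrine) to 0.48 (T cells), and the band describes single genes, not medians.

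To see whose array set a difference apart, each array was compared with the other 4 together. The 4B(-/-) array lay at least 2-fold above every other array at 8 genes (0.0696%) and below at 14 (0.122%). The 8 were Dntt, Hprt, Sh2d1a, Rag1, Ccr9, Trbv1, Ccl25 and Cd8a, by 2.04-fold (Cd8a) to 3.26-fold (Dntt), so all but Hprt are genes of T cells or the thymus list. Sh2d1a and Cd8a were counted only because 4B(-/-) itself reached the floor. Among the 14 the gaps to the nearest array were 21.6-fold for Lipf, 14.9-fold for Dmbt1, 5.21-fold for Glycam1, 4.52-fold for Wfdc18, 4.27-fold for Chga, 4.16-fold for Pth, 3.90-fold for Dcpp3, 3.77-fold for Tg, 3.47-fold for Myh4 and 3.29-fold for Crisp3. The last 4, named after their values were seen, were Gp2, 2310057J18Rik, Egr3 and Prpmp5. The 4B(+/+) array stood apart at 1 gene above (0.0087%, Cxcl5) and 0 below (0%). C57 did so at 13 above (0.113%) and 12 below (0.104%), 4D(+/+) at 81 (0.704%) and 1 (0.0087%), and 4D(-/-) at 3 (0.0261%) and 1 (0.0087%).

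**Figure D5:**
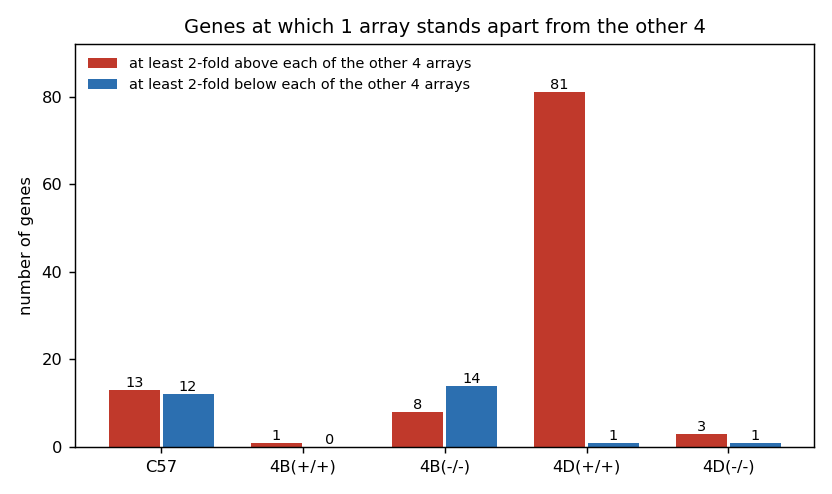
Number of genes, on the y axis, at which the array named on the x axis lies at least 2-fold above (red) or below (blue) each of the other 4. The 4B(-/-) array has 8 above and 14 below and its wild type 1 and 0, while 4D(+/+) has 81 above.

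The PDE4D pair, which shares no array with this comparison, was read beside it. In 4D(-/-) 24 genes were 2-fold higher than in 4D(+/+) (0.209%) and 174 lower (1.51%). Of the 35 genes lower in 4B(-/-), 26 were also lower in 4D(-/-), which is 74.3% of the 35 and 14.9% of the 174, and 0 genes were higher in both. The 26 include Lipf, Chga, Pth, Tg, Slc26a7, Ucp1 and fast muscle genes such as Myh4 and Actn3. Lower in 4D(-/-) did not always mean low beside the other arrays. Myh4 read 3920.3 in 4D(+/+) and 1562 in 4D(-/-), which is above 4B(+/+) at 1204 and C57 at 612. For Tg, Slc26a7 and Ucp1, in contrast, 4D(-/-) lay below both 4B(+/+) and C57. The 9 genes lower in 4B(-/-) alone at this size were Dmbt1, Wfdc18, Dcpp3, Glycam1, 2310057J18Rik, Crisp3, A2ml1, Egr3 and Col11a1, with PDE4D differences from -0.95 (Wfdc18) to 3.71 (Glycam1). The T-cell and immediate early lists had medians of -0.07 and 0.10 in the PDE4D pair, against 0.48 and -0.29 here, and that difference was not tested.

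Genes next to Pde4b on chromosome 4 were read as a set of their own. Among 200 neighbours above the floor, 100 on each side in the RefSeq gene order, 2 were higher by 1.5-fold (1%) and 1 lower (0.5%), with a median of 0.02, where 0.383% and 0.93% of all genes passed. Efcab7, a calcium-binding protein gene 7 places from Pde4b, read 105 in 4B(-/-), 39.8 in 4B(+/+), 58.4 in C57, 45.6 in 4D(+/+) and 36.7 in 4D(-/-), 2.63-fold higher and highest in the knockout. Efcab7 reached the floor in 4B(-/-) alone, so its place among the 2 higher neighbours was set by the floor. Hyi, a putative isomerase gene 88 places away, read 215 against 111 and 96.8 to 105 in the other 3, 1.93-fold higher. The lower neighbour was Dio1, described with the thyroid genes. The next largest were Ttc39a at -0.57 and 2310002L09Rik at -0.52, the last with both arrays under the floor.

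Of the 65 probe sets that passed 2-fold, 56 had 1 gene symbol and 9 had several or none, out of 2154 such probe sets above the floor. With 1 symbol, 6 belonged to 4 genes whose brightest probe set was not past 2-fold, all named after their values were seen. Ighm, the heavy chain of IgM and on the plasma cell list, had 1425385_a_at at 60.9 in 4B(-/-), 489 in 4B(+/+), 51.0 in C57, 46.6 in 4D(+/+) and 271 in 4D(-/-), 8.03-fold lower, while its brightest probe set was at -0.40. Zyg11b had 1446244_at 2.49-fold lower, Pisd-ps3 had 1429452_x_at and 1453144_at each 2.15-fold lower, and Tbata is described with the thymus genes. The largest differences without 1 symbol were lower: 1418307_a_at by 13.1-fold, 1427355_at by 11.0-fold, 1459725_s_at by 7.64-fold, 1420600_at by 4.00-fold and 1424631_a_at by 3.67-fold. The 5 highest were 1425226_x_at at 2.31-fold, 1426772_x_at at 2.23-fold, 1425854_x_at at 2.07-fold, 1426159_x_at just short of 2-fold (885 against 444) and 1425396_a_at at 1.88-fold. In these 5 the other 4 arrays lay close together, for 1425226_x_at at 296 to 384 against 885 in 4B(-/-).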

How the data were processed

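Total RNA of whole lung was hybridised to 1 Affymetrix 3' array per strain, from 0.3 µg of pooled RNA. The authors deposited linear intensities, 1 for each probe set in each array, and RMA is named in the submitters' processing notes; no source used here gives its version or settings. The intensities were taken to log2 and subtracted, 4B(-/-) minus 4B(+/+). Probe sets were named through GEO's platform annotation: 34958 had 1 symbol, 932 several and 9211 none. Genes, the floor (log2 of 6 in the highest of 5 arrays) and thresholds are as in the text; the number of arrays limits the precision, and no test was run. The members and the 49 gene lists were chosen with earlier results of these data known. Named were up to 30 genes each way past 2-fold, the 6 largest differences of each list, every phosphodiesterase by value or range, the 10 largest each way among genes at which 1 array stood apart, and the 5 largest neighbours of Pde4b and probe sets without 1 symbol. Alternatives were another wild type as reference, other floors and folds, the median over probe sets of a gene, centring, and loess (limma 3.58.1 in R 4.3.3). The steps were tested on simulated data and used Python 3.11.15, pandas 2.3.3, numpy 2.4.6 and matplotlib 3.10.9.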

Additional observations from a re-analysis of the deposited data

Results flagged for a closer look

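At 4 genes past 2-fold the PDE4B pair and the PDE4D pair differed in opposite directions, each pair with 1 array a side; the difference between the pairs was not tested. Ccl25 was at 1.55 in the PDE4B pair (log2, knockout minus wild type) and -1.54 in the PDE4D pair. Myl2 was at 1.75 and -1.54, and Rag1 at 1.39 and -3.21. Glycam1 was at -2.41 and 3.71.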

How the results depend on the processing

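No paired analysis was possible because each group has 1 array, and no array could be left out. Without a floor, after loess or after centring, all 61 named genes kept their direction, and the 12 higher and 35 lower genes were all shared. The 12 higher genes became 79 against C57, 44 at 1.5-fold and 3 at 3-fold. The 35 lower became 75 against C57, 128 against 4D(+/+), 56 against the mean of the 3 wild types, 23 with both arrays above the floor, 107 at 1.5-fold and 23 at 3-fold. The 19 higher probe sets became 109 against C57, 35 against 4D(+/+), 29 against the mean, 12 at a floor of log2 7, 11 with both arrays above the floor, 70 at 1.5-fold and 5 at 3-fold. The 46 lower probe sets became 181, 178 and 79 against C57, 4D(+/+) and the mean, 28 with both above the floor, 189 at 1.5-fold and 29 at 3-fold. Listed genes past 1.5-fold, 27 higher and 58 lower, became 104 higher against C57, 88 lower against 4D(+/+), and 11 and 28 at 2-fold. Genes at which 4B(-/-) stood apart, 8 above and 14 below, became 22 and 39 at 1.5-fold, and those above 2 at 3-fold and 4 with the median of probe sets. Against C57 the direction turned for the medians of skeletal muscle (0.19), cartilage (0.80) and fat (0.53), and for Ucp1 (0.51), Cxcl5 (3.38), Col11a1 (0.55), Cidea (0.96), Tnnt3 (0.022), Hspa1a (0.29), Hspa1b (0.20) and Pde4b (0.062). Against 4D(+/+) it turned for Cxcl5 (0.58), Myl3 (-0.022) and Cyp26b1 (-0.11), and against the mean for cartilage (0.11) and Cxcl5 (0.78). The cause was not tested. Genes near the floor, where signal over background is low, have the least certain folds.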

Other observations

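The genes here are on none of the lists and were chosen after their values were seen, so they add no support to the groups described above. In all, 17 genes on no list were higher by 1.5-fold and 49 lower. The kinetochore genes Cenpa, Spc24 and Spc25, which hold chromosomes to the spindle, were at 0.65, 0.63 and 0.62 (log2, 4B(-/-) minus 4B(+/+)). Trgv4, a gamma chain segment of the T-cell receptor, was at 0.69, while Cd69, an early activation marker of lymphocytes, was at -0.69. The triad protein gene Trdn and the sarcomere gene Klhl41 were at -0.76 and -0.83.

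Grp, gastrin-releasing peptide of neuroendocrine cells, read 126 in 4B(-/-), 230.2 in 4B(+/+), 217 in C57, 411 in 4D(+/+) and 178 in 4D(-/-), lowest in the PDE4B knockout. Rsrp1, an arginine and serine rich protein gene, read 1598 in 4B(-/-) against 2506 to 2734 in the other 4 arrays, a difference of -0.65 from 4B(+/+). Lrg1, a secreted leucine-rich glycoprotein, read 1386 in 4B(-/-) against 688 to 1020.4 in the other 4. The macrophage receptor gene Adgre4 was at -0.73, the Wnt inhibitor Wif1 at -0.77 and the eosinophil ribonuclease family member Ear3 at -0.86.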
